A study of Mus musculus with 4 samples.

Results

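Nuclei with the gene profile sought for Drd1 striatal-type spiny neurons, called Drd1 nuclei here, were picked out of cortical nuclei from Gclc-KO mice by the unique molecular identifiers (UMIs, each counted as 1 RNA molecule) of 7 genes. A nucleus was taken when it had no more than 7000 detected genes, no more than 1% of UMIs from mitochondrial genes, at least 1 UMI of Gad1 plus Gad2, none of Slc17a7, Drd2 or Adora2a, at least 2 of Rarb and at least 1 of Drd1. The members were thus selected on measured UMIs of Gad1, Gad2, Slc17a7, Drd2, Adora2a, Rarb and Drd1, whose values are given only as a description. Of 30515 nuclei, 80 met this rule. At 3 months of age the first library (3M-1) gave 27 of 6802 nuclei and the second (3M-2) 22 of 8750. At 6 months the first library (6M-1) gave 24 of 8111 and the second (6M-2) 7 of 6852. Values for several libraries are given in this order throughout, and 3 values stand for the libraries other than 6M-2. Each library came from 1 mouse. In all 4 mice Gclc, which encodes the catalytic subunit of the enzyme that starts glutathione synthesis, was floxed (C57BL/6NTac-Gclctm1a(EUCOMM)Wtsi/WtsiCnbc mice) and deleted with a CaMKII-Cre transgene, whose promoter is known mainly from excitatory forebrain neurons. No wild-type library was analysed here. The dissected cortex was taken where rod-shaped microglia were frequent, and nuclei were sorted by DNA staining, so how much adjoining tissue each piece held is not known. The kept nuclei of a library held between 59262228 and 65894316 UMIs, and the Drd1 nuclei had a median of 8728, 8835, 8742 and 14236 UMIs each.

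Spiny projection neurons are the GABA-releasing output neurons of the striatum. One class carries the dopamine receptor Drd1, which raises cyclic AMP through the G protein subunit Gnal and the adenylyl cyclase Adcy5, and usually makes the peptides encoded by Tac1 and Pdyn. The other class carries Drd2 and the adenosine receptor Adora2a and makes the peptide encoded by Penk. The retinoic acid receptor gene Rarb and the transcription factor genes Ebf1, Meis2, Foxp1 and Foxp2 are known for their roles in these neurons. By position on GRCm38, Drd1 lies on chromosome 13 (54051183 to 54055705), Rarb on chromosome 14 (16430839 to 16819156), Ebf1 on chromosome 11 (44617317 to 45008091) and Pbx3, a homeobox gene, on chromosome 2 (34171457 to 34373142).

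The number of Drd1 nuclei differed between libraries of the same age. With n = 2 at each age, library and age could not be weighed against each other. They were 0.397% of the nuclei of 3M-1 (Wilson 95% interval 0.273 to 0.577%) and 0.251% of those of 3M-2 (0.166 to 0.380%). At 6 months the share was 0.296% (0.199 to 0.440%) in the first and 0.102% (0.0495 to 0.211%) in the second library. The interval of 6M-2 reached below those of the other libraries, while 6M-1 lay between the 3-month libraries. The mean was 0.324% ± 0.103 (SD, n = 2) at 3 months and 0.199% ± 0.137 (SD, n = 2) at 6 months, a difference of -0.125 percentage points that did not pass the test (p = 0.667 by a two-sided exact permutation test, where 2 mice against 2 cannot go below 0.333). Intervals cover counting error only.

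Drd2 nuclei, taken by the same rule with at least 1 UMI of Drd2 or Adora2a and none of Drd1, came along in 3 libraries. There were 26, 42, 36 and 0, and 0 of 6852 nuclei allows a share of up to 0.0438% by a floor of 3 counts (Wilson upper limit 0.0560%). Drd1 nuclei were 50.9%, 34.4% and 40.0% of both receptor classes together in the first 3 libraries, and 7 of 7 in 6M-2. The mean share was 42.7% ± 11.7 (SD, n = 2) at 3 months and 70.0% ± 42.4 (SD, n = 2) at 6 months (difference 27.3 percentage points, p = 0.667 by the same exact test). Under this rule the difference without 6M-2 was -2.66 percentage points, so its direction there rested on that library. Under several alternatives it was positive without 6M-2, as given at the end. The part that dissection played in these numbers was not tested.

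The rule selected 3 kinds of nucleus, not 1. Nxph1, which encodes neurexophilin 1 and is a marker of cortical interneurons, had 0 or 1 UMI in 59 Drd1 nuclei and 3 to 73 UMIs in the other 21. Meis2 had at least 3 UMIs in exactly those 59 nuclei and at most 2 in the 21. Among the 59, a group of 29 had more UMIs of Pbx3 plus Tshz1 than of Foxp1, and 30 had not. These are called Nxph1-rich, Pbx3/Tshz1-rich and Foxp1-rich nuclei here. The kinds were set after their values had been seen, so their values are a description without a test, and 2 of the 59 lay within 2 UMIs of the line between Pbx3 plus Tshz1 and Foxp1.

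**Figure D1:**
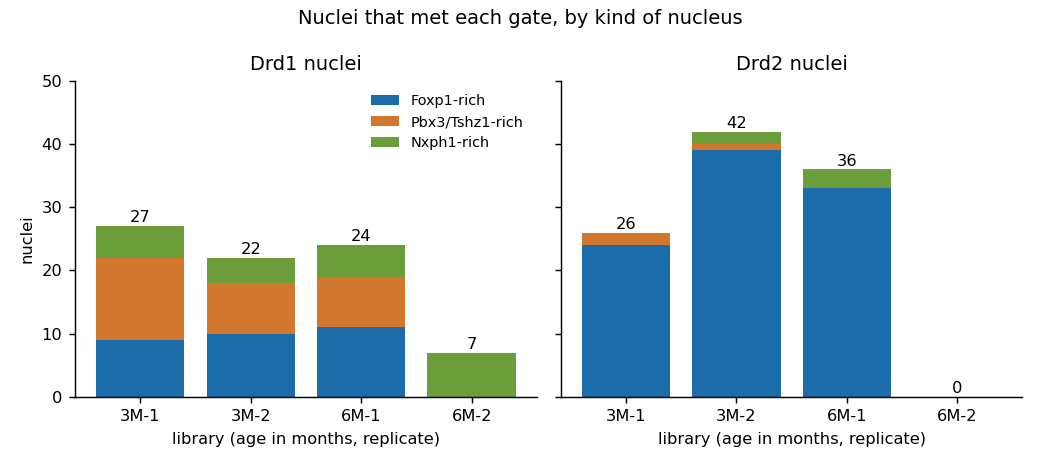
Nuclei (vertical axis) that met the Drd1 rule (left) and the Drd2 rule (right) in each library (horizontal axis), coloured by kind, with totals above the bars. All 7 Drd1 nuclei of 6M-2 were Nxph1-rich, and 6M-2 had no Drd2 nucleus.

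Foxp1-rich nuclei numbered 9, 10, 11 and 0 in the 4 libraries. The Pbx3/Tshz1-rich nuclei numbered 13, 8, 8 and 0, and the Nxph1-rich nuclei 5, 4, 5 and 7. Among Drd1 nuclei the first and second kinds were thus found in the same 3 libraries as the Drd2 nuclei, while the third was found in all 4. By the same lines 6M-2 held 9 nuclei that were not Nxph1-rich among the 76 with 2 or more Rarb UMIs and no Drd1 UMI (5 sorted as Foxp1-rich and 4 as Pbx3/Tshz1-rich), but only 4 of the 76 had 3 or more Meis2 UMIs, a level that all 59 members of these kinds had. In the 7 nuclei of 6M-2, Meis2, Foxp2, Ebf1, Ppp1r1b and Pdyn were all at 0 UMIs and Nxph1 was at 250. Other genes of the spiny neuron lists were present there, with Pde10a at 190 UMIs (1774 CPM), Foxp1 at 19, Bcl11b at 14 and Tac1 at 2. In its defining markers the spiny neuron label therefore went against the data in all 7 nuclei of 6M-2, and in the 21 Nxph1-rich nuclei of the 4 libraries together, none of which had more than 2 Meis2 UMIs or any Foxp2 or Ppp1r1b UMI. They are described only as Nxph1-rich.

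The markers of the label fell on different nuclei. Ebf1 was detected in 28 of the 80 nuclei and Pbx3 in 40, but at least 1 Ebf1 UMI and at least 3 Pbx3 UMIs were never found together. Ebf1 was detected in 27 of 30 Foxp1-rich nuclei (median 5 UMIs, highest 16), in none of the 29 Pbx3/Tshz1-rich nuclei, and with 1 UMI in 1 Nxph1-rich nucleus. Pbx3 was detected in all 29 Pbx3/Tshz1-rich nuclei (median 9 UMIs, highest 24) and reached at most 2 UMIs in the other kinds. For Pbx3 this was largely fixed by the way the kinds were set.

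**Figure D2:**
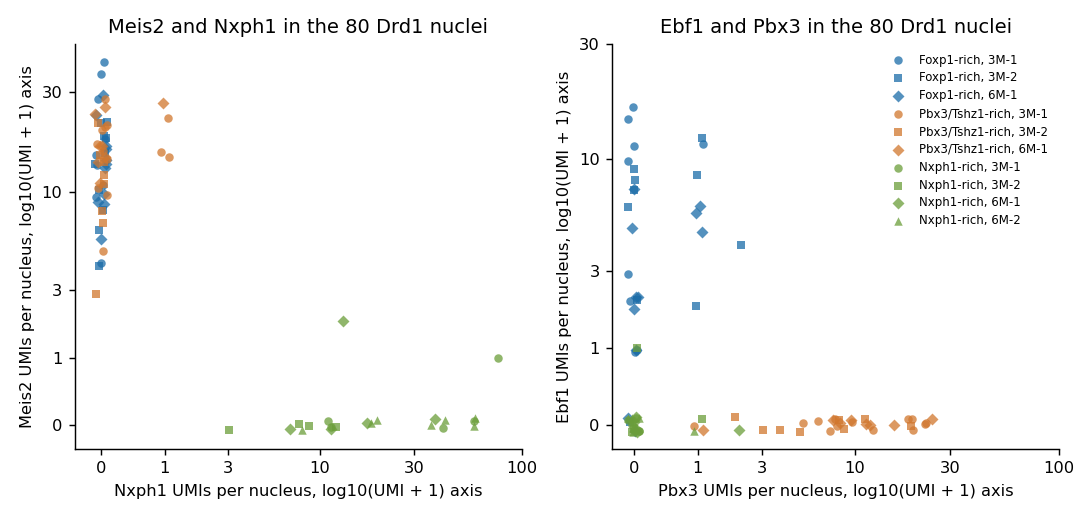
UMIs per nucleus of Meis2 against Nxph1 (left) and of Ebf1 against Pbx3 (right) in the 80 Drd1 nuclei, 1 point per nucleus, shifted slightly at random so that equal values can be seen, on log10(UMI + 1) axes. Nuclei with 3 or more Meis2 UMIs had at most 1 Nxph1 UMI, and nuclei with Ebf1 had at most 2 Pbx3 UMIs.

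Foxp1-rich nuclei carried several genes of the Drd1 class. In CPM (UMIs of the gene per 1000000 UMIs of the summed nuclei), Ebf1 was at 689.6, 591 and 356. Tac1, the substance P precursor gene, was at 167, 296 and 267 CPM, and Pdyn, the dynorphin precursor gene, at 69.0, 61.2 and 39.6 CPM. In both 3M-1 and 3M-2, 13 of the Tac1 UMIs came from 1 nucleus. Isl1, a transcription factor gene of this lineage, had 9, 3 and 0 UMIs, in 8 of the 30 nuclei, and none in the other kinds. Other genes of the Drd1 class list were sparse or did not follow the kinds, with Chrm4 at 1 UMI in all Foxp1-rich nuclei together, Eya1 at 3 UMIs against 3 in the Pbx3/Tshz1-rich and 4 in the Nxph1-rich nuclei, and Zfp521 at 3 against 5 and 1. Pde10a, which encodes the striatal phosphodiesterase, was at 2246, 2447 and 2464 CPM. All 3 libraries thus held nuclei of this profile, with Ebf1, Pdyn and Isl1 lowest in 6M-1.

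Pbx3/Tshz1-rich nuclei shared Meis2 and Foxp2 with the Foxp1-rich nuclei. Meis2 was at 1952, 2153 and 2505 CPM and Foxp2 at 1421, 1358 and 1227 CPM. The mu opioid receptor gene Oprm1, known as a marker of striosomes, was at 288, 375 and 555 CPM against at most 10.2 CPM in Foxp1-rich nuclei of any library. Tshz1, a zinc finger gene on the list of eccentric spiny neuron genes, was at 531, 492 and 689 CPM. Otof, a gene of the same list, was at 297, 304 and 219 CPM here and at 246, 133 and 59.4 CPM in Foxp1-rich nuclei, so Otof did not separate the kinds. Casz1, also on that list, was detected in more Pbx3/Tshz1-rich than Foxp1-rich nuclei. Tac1 had 2 UMIs in all 29 nuclei, Isl1 none, and Ppp1r1b, which encodes DARPP-32, was detected in 2 nuclei against 14 Foxp1-rich nuclei. No cell type is given to this kind, since it combines markers from different lists.

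Other genes followed the same lines. Among genes with at least 30 UMIs in a kind that were above both other kinds in each of the 3 libraries, Pde1c, Ebf1, Arhgap10, Tac1 and Pde7b led the Foxp1-rich nuclei. Pde7b, a cyclic AMP phosphodiesterase gene, was at 1660 CPM there over the 3 libraries together, against 192 CPM in Pbx3/Tshz1-rich and 17.1 CPM in Nxph1-rich nuclei. Ankfn1, Chst9, Vwc2l and Cpne7, beside Pbx3, which the kind was set by, led the Pbx3/Tshz1-rich nuclei, with Ankfn1 at 834 CPM against 0 in the Foxp1-rich and 91.3 CPM in the Nxph1-rich nuclei. Sox6, a transcription factor gene of interneurons from the medial ganglionic eminence, led the Nxph1-rich nuclei at 1518 CPM against 3.33 and 4.69 CPM in the Foxp1-rich and Pbx3/Tshz1-rich nuclei. Lhx6, another transcription factor gene of those interneurons, was detected in 11 of 21 Nxph1-rich nuclei and in none of the other 59.

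**Figure D3:**
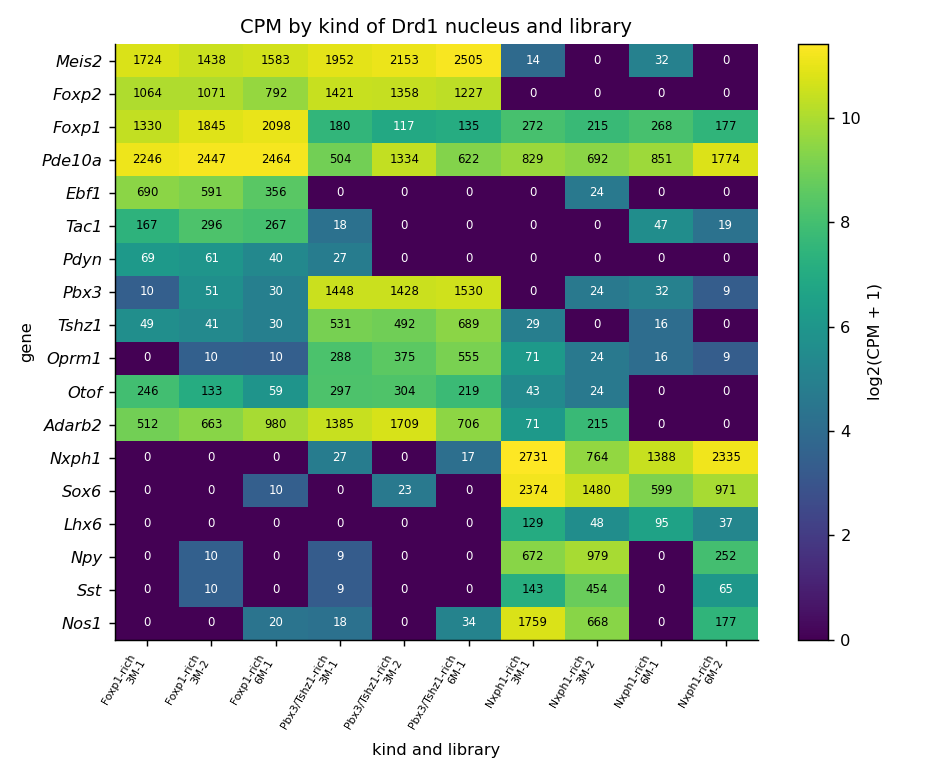
CPM of 18 genes (rows) in the summed Drd1 nuclei of each kind and library (columns), with the CPM printed in each cell and colour on a log2(CPM + 1) scale. Meis2 and Foxp2 mark the first 2 kinds, Ebf1, Tac1 and Pdyn the Foxp1-rich, Pbx3, Tshz1 and Oprm1 the Pbx3/Tshz1-rich, and Nxph1, Sox6 and Lhx6 the Nxph1-rich nuclei.

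Drd1 itself was sparse. Of the 80 nuclei, 59 had exactly 1 Drd1 UMI, and the highest count was 5. A single UMI can come from free RNA, so the receptor was also summed over all GABA nuclei with 2 or more Rarb UMIs and no Drd2 or Adora2a, whether or not they had a Drd1 UMI. Drd1 was then at 54.7 CPM in Foxp1-rich nuclei (30 of 106 with a UMI), 63.3 CPM in Pbx3/Tshz1-rich nuclei (29 of 81) and 7.05 CPM in Nxph1-rich nuclei (21 of 276). For comparison, Drd1 was at 3.08 to 4.59 CPM in nuclei with 2 or more Slc17a7 UMIs (excitatory nuclei) and at 0.849 to 2.09 CPM in oligodendrocyte nuclei (2 or more UMIs of Mog plus Mag), which should lack it. With every nucleus thinned to 5000 UMIs, the excitatory nuclei had a Drd1 UMI in 1.37 to 2.32% of cases (2.95 to 5.34% before thinning). The oligodendrocyte nuclei had one in 0.265 to 0.451% before thinning, at median depths of 1803 to 3001 UMIs. By library, Drd1 was at 6.16, 14.2, 4.77 and 7.70 CPM in the Nxph1-rich nuclei, each above the excitatory values. It was at 51.1, 55.1 and 64.3 CPM in the Foxp1-rich and at 62.5, 76.1 and 80.9 CPM in the Pbx3/Tshz1-rich nuclei of the first 3 libraries, and at 0 in the 5 and 4 such nuclei of 6M-2. The part of free RNA in these levels was not tested.

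The make-up of nuclei just inside the limits of the rule was set beside that of nuclei just outside them, as values without a test. Of the 59 nuclei with exactly 1 Drd1 UMI, 30.5% were Nxph1-rich, against 66.6% of the 383 nuclei just outside with no Drd1 UMI. Of the 13 nuclei with exactly 2 Rarb UMIs, 61.5% were Nxph1-rich, against 70.4% of the 27 nuclei just outside with 1 Rarb UMI. The median depth was 10209 UMIs in Foxp1-rich, 7180 in Pbx3/Tshz1-rich and 12890 in Nxph1-rich nuclei. Rarb had a median of 12 UMIs in Foxp1-rich, 4 in Pbx3/Tshz1-rich and 3 in Nxph1-rich nuclei. The lower limit on Rarb thus lay close to the Nxph1-rich nuclei and far below most Foxp1-rich nuclei.

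Drd1 nuclei were compared with Drd2 nuclei of the same mouse to see how the receptor classes differed in genes that did not choose them. UMIs were summed per mouse and class, with at least 10 nuclei a sum, which left the 3 libraries other than 6M-2. By edgeR's quasi-likelihood test blocked by mouse, 185 genes were higher and 127 lower in Drd1 nuclei at an adjusted p under 0.05, which is 6.25% of the 4994 genes tested. The genes of the rule were left out. As the kinds were unequally shared (96 of 104 Drd2 nuclei were Foxp1-rich), part of these genes followed the kinds, as given below.

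Ebf1 was at 247.7, 323 and 161 CPM in the Drd1 nuclei and had 0 UMIs in the Drd2 nuclei, so it was at least 76.4-fold higher against a floor of 3 UMIs over the group. Tac1 was at 67.2, 159 and 134 CPM against 0, 6.75 and 2.61 CPM (78 against 3 UMIs, ratio 36.1, exact interval 11.9 to 179, counting error only). Of its UMIs, 13 came from 1 nucleus of 3M-1 and 13 from 1 nucleus of 3M-2. Both genes were higher in the Drd1 nuclei of each mouse. Penk, the enkephalin precursor gene of the Drd2 class, was at 28.3, 21.9 and 49.1 CPM in Drd1 nuclei and at 353, 348 and 242 CPM in Drd2 nuclei (log2 difference -3.22, SE 0.30, edgeR adjusted p = 9.04e-06). Grik3, a kainate receptor subunit gene, was lower as well (-1.30, SE 0.31, edgeR adjusted p = 0.0183). Of the Drd1 class markers other than Drd1, 3 of 9 could be tested and 2 were higher, and of the Drd2 class markers 2 of 6 could be tested and both were lower.

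Of the genes shared by both classes, some were called and most were not, beside 6.25% of all genes called in this comparison. Of 24 genes of spiny neuron identity and related signalling proteins (17 tested), 2 were higher and 2 lower in Drd1 nuclei, with a median log2 difference of -0.26 against 0.00 over all genes. Foxp2 was higher (3.56, SE 0.27, edgeR adjusted p = 1.38e-06), as was Pbx3 (2.35, SE 0.27, adjusted p = 6.10e-05), while Foxp1 was lower (-0.77, SE 0.20, adjusted p = 0.0301), as was the diacylglycerol kinase gene Dgkb (-0.71, SE 0.16, adjusted p = 0.0156). Of the dopamine and cyclic AMP signalling genes, 26 of 29 were tested. Here 1 was higher (Rps6ka5, a kinase gene) and 3 were lower, namely the phosphodiesterase genes Pde7b (-0.69, SE 0.16, not called with the Nxph1-rich nuclei left out) and Pde4d (-0.68, SE 0.16) and Arpp19 (-1.15, SE 0.30). Meis2, which both classes carry, was at 1391, 1275 and 1389 CPM in Drd1 and at 1540, 1573 and 1433 CPM in Drd2 nuclei.

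Receptor genes were called in both directions and channel genes only as higher. The serotonin receptor gene Htr2c was lower in Drd1 nuclei (106, 98.5 and 161 CPM against 552, 246 and 370.0 CPM, log2 difference -1.68, SE 0.24, edgeR adjusted p = 5.09e-04), and the delta opioid receptor gene Oprd1 (-2.17, SE 0.42) and the serotonin receptor gene Htr4 (-1.04, SE 0.22) were lower too. The GABA-B receptor subunit gene Gabbr2 was higher (1.14, SE 0.22), a call that was lost with the Nxph1-rich nuclei left out. Together 2 of the 10 modulator receptor genes tested were higher and 3 lower. These counts stand beside the 6.25% of all genes called in this comparison. Of 12 channel genes tested, 3 were higher and none lower, among them the calcium channel subunit gene Cacna2d3 (1.09, SE 0.16) and the potassium channel gene Kcnd2 (0.58, SE 0.15). In the 7 Nxph1-rich nuclei of 6M-2, which the fit did not use, Gabbr2 was at 635 CPM, above each of the 3 fitted libraries.

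**Figure D4:**
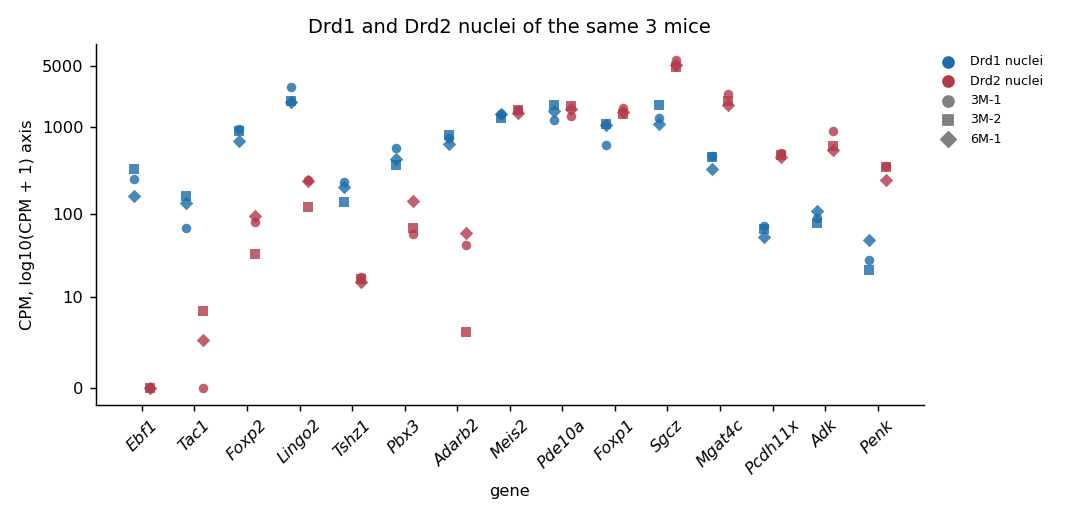
CPM (log10(CPM + 1) axis) of 15 genes (horizontal axis) in summed Drd1 (blue) and Drd2 (red) nuclei, 1 point per library, for the 3 libraries of the fit. Ebf1, Tac1, Foxp2, Lingo2, Tshz1, Pbx3 and Adarb2 lay higher in the Drd1 nuclei of each mouse, Sgcz, Mgat4c, Pcdh11x, Adk and Penk lower, and Meis2 and Pde10a lay close together.

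The genes with the smallest adjusted p beyond these lists were Lingo2 and Thsd7b among the higher and Mgat4c, Pcdh11x and Adk among the lower ones. Lingo2, which encodes a leucine-rich repeat membrane protein, was at 2841, 1981 and 1920.1 CPM in Drd1 nuclei and at 242, 118 and 239.7 CPM in Drd2 nuclei (log2 difference 3.48, SE 0.21, edgeR adjusted p = 2.38e-07). Adk, the adenosine kinase gene, was at 88.5, 76.6 and 107 CPM against 887, 608 and 545 CPM (-2.90, SE 0.23, adjusted p = 1.81e-06). Pcdh11x, a protocadherin gene, was at 70.8, 65.7 and 53.6 CPM against 494, 479 and 443 CPM (-2.91, SE 0.22). Kctd8, Sgcz, Efna5, Zfhx3 and Prex2 were lower by 1.98 to 2.45 on the log2 scale in size. Genes beyond the lists were named only if their direction was the same in every mouse, so that agreement is no result. The classes did not overlap in any of these genes, which were picked for a small adjusted p. The share of all genes without overlap was not counted.

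Setting the Foxp1-rich nuclei of both classes side by side, as values without a test, gave the following. In the Foxp1-rich Drd1 nuclei Lingo2 was at 3586, 2294 and 2227 CPM and in the Foxp1-rich Drd2 nuclei at 221, 124 and 168 CPM. Foxp2 was at 1064, 1071 and 792 CPM against 67.3, 33.9 and 108 CPM. Neither gene overlapped between the classes within the kind. Unc5d, a netrin receptor gene, had 7 UMIs in the Drd1 and 1767 UMIs in the Drd2 nuclei of this kind, and Penk had 1 against 291 UMIs. Pbx3 was at 9.85, 51.0 and 29.7 CPM in Drd1 against 44.9, 56.5 and 102 CPM in Drd2 nuclei. Chst9, a sulfotransferase gene that was higher in Drd1 nuclei as a whole (134 against 2 UMIs), had 0 UMIs in the Foxp1-rich Drd1 nuclei. Thsd7b, among the leading genes of the whole classes, had only 5 UMIs in Drd1 and 3 in Drd2 nuclei of this kind (19.7, 10.2 and 19.8 CPM against 0, 7.54 and 2.99 CPM). Foxp1 was at 1330, 1845 and 2098 CPM in Drd1 and at 1706, 1492 and 1616 CPM in Drd2 nuclei of the kind, where the ranges overlapped. Since the kind was set by Pbx3 plus Tshz1 against Foxp1, its Pbx3 and Foxp1 values were bounded by that choice and are given only as values.

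Against cortical-type interneuron nuclei (at least 2 UMIs of Gad1 plus Gad2, at least 1 of Nxph1 and none of the other genes of the rule), 683 genes were higher and 498 lower in the Drd1 nuclei of the same 3 mice. That is 10.1% of 11703 genes (edgeR, adjusted p under 0.05, blocked by mouse). Of 22 spiny neuron identity genes tested, 19 were higher and none lower, with a median log2 difference of 2.41 against -0.05 over all genes. Meis2 was at 1391, 1275 and 1389 CPM against 39.8, 20.6 and 49.0 CPM (5.31, SE 0.22, edgeR adjusted p = 9.71e-14), and Ebf1 at 247.7, 323 and 161 CPM against 4.07, 1.90 and 2.57 CPM (6.38, SE 0.28, adjusted p = 1.27e-13). Adcy5 (3.07, SE 0.20) and Rgs9 (3.58, SE 0.21), which act in dopamine receptor signalling, were higher, as was Ppp1r1b (5.72, SE 0.74). As a sum, Drd1 nuclei thus stood apart from interneurons in the identity genes. Of the 73 summed nuclei, 14 were Nxph1-rich, a kind with no Foxp2 or Ppp1r1b UMI, so this does not hold for each kind. Rarb, Drd1 and Nxph1 chose the classes, so differences in genes that go with these were partly set by the rules.

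In the signalling list, 16 of 29 genes were higher and 1 was lower (Pde4d, -0.71, SE 0.16), with a median log2 difference of 0.92. Gnal was at 467, 564 and 554 CPM against 145, 135 and 146 CPM (1.94, SE 0.17, edgeR adjusted p = 2.64e-08). Of the lists for parts of the striatum, 4 of 8 striosome genes tested were higher and 1 lower, 2 of 7 matrix genes were higher and 1 lower, 4 of 6 genes of eccentric spiny neurons were higher, 4 of 5 ventral genes were higher and 2 of 4 dorsal genes were lower. The dorsal genes that were lower, Cnr1 (-1.38, SE 0.40) and Reln (-2.31, SE 0.20), are also expressed in cortical interneurons. Among the others, the striosome genes Lypd1 (3.20, SE 0.48) and Sema5b (2.37, SE 0.34), the matrix gene Epha4, an ephrin receptor gene (1.25, SE 0.26), Otof (4.69, SE 0.30) from the eccentric list and Crym, which encodes a thyroid hormone binding protein (3.81, SE 0.61), from the ventral list were higher. Calb1, the calbindin gene of the matrix list, was lower (-1.75, SE 0.28). These counts stand beside the 10.1% of all genes called in this comparison.

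Ion channel and receptor genes differed from interneurons as well. Of 14 channel genes tested, 7 were higher and 1 lower. The potassium channel gene Kcnd2 (1.84, SE 0.15, edgeR adjusted p = 5.70e-09), its partner Kcnip2 (1.63, SE 0.24), the calcium channel genes Cacna2d3 (1.72, SE 0.17) and Cacna1e (1.70, SE 0.19) and the sodium channel subunit gene Scn4b (4.74, SE 0.89) were among the higher ones. Of 14 modulator receptor genes tested, 5 were higher and 3 lower. Both counts stand beside the 10.1% of all genes called in this comparison. Htr4 (2.00, SE 0.22, adjusted p = 5.99e-07) and Grm7, a glutamate receptor gene (1.02, SE 0.16), were higher, and Gabbr2 (-1.25, SE 0.19) and Oprd1 (-1.87, SE 0.37) were lower. Gabbr2 was at 163, 203 and 219 CPM in Drd1, 72.1, 97.9 and 91.2 CPM in Drd2 and 484, 506 and 443 CPM in interneuron nuclei. Within the Drd1 nuclei it was at 88.7, 163 and 109 CPM in the Foxp1-rich, 180, 211 and 67.3 CPM in the Pbx3/Tshz1-rich and 243, 286 and 536 CPM in the Nxph1-rich nuclei, so its level differed between the kinds.

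Lower in Drd1 nuclei were Kit, a receptor tyrosine kinase gene (2 UMIs against 1516, ratio 47.99 in favour of the interneurons, exact interval 13.3 to 397, counting error only), the kainate receptor gene Grik1 (-2.06, SE 0.18) and the transcription factor genes Maf (-2.65, SE 0.27) and Zfp536 (-2.15, SE 0.21). Of 7 interneuron markers tested, 2 were lower, beside 10.1% of all genes called. They were Lhx6 (-1.35, SE 0.33, edgeR adjusted p = 0.00830) and Adarb2 (-1.14, SE 0.20, adjusted p = 2.64e-04). Adarb2 was nevertheless at 747, 805 and 629.6 CPM in Drd1 nuclei against 43.3, 3.38 and 59.9 CPM in Drd2 nuclei, where it was higher in the Drd1 class (4.28, SE 0.38, adjusted p = 6.04e-06). It was present in the Foxp1-rich and the Pbx3/Tshz1-rich nuclei.

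Within the Drd1 nuclei, those with 2 or more Tshz1 UMIs were set against those with none, and the same was done for Oprm1. No library had 10 nuclei on each side, so sums of at least 5 nuclei were used, a limit lowered after the counts had been seen. For Tshz1 the 3 libraries had 13, 7 and 7 nuclei with and 8, 11 and 14 without. By edgeR, 88 genes were higher and 80 lower, which is 8.87% of 1894 genes tested. For Oprm1 they had 9, 5 and 7 nuclei with and 11, 14 and 14 without, and 49 genes were higher and 48 lower, which is 4.28% of 2267 genes.

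Pbx3 was higher on the positive side of both splits (log2 difference 5.53, SE 0.47, edgeR adjusted p = 5.95e-06 for Tshz1, and 4.94, SE 0.47, adjusted p = 0.00390 for Oprm1). Oprm1 was higher in nuclei with Tshz1 (3.08, SE 0.41, adjusted p = 2.25e-04), and Tshz1 in nuclei with Oprm1 (3.56, SE 0.46, adjusted p = 0.00677). In nuclei with Oprm1, Ebf1 was at 0 against 162 UMIs (at least 24.8-fold lower), Tac1 at 0 against 75 (at least 11.5-fold lower) and Pde1c at 0 against 179 (at least 27.5-fold lower), while Foxp1 was lower (-3.08, SE 0.39, adjusted p = 0.00677). Of the striosome genes other than Oprm1, 3 could be tested in this split and none passed. In the Tshz1 split 4 striosome genes could be tested and 3 were higher, namely Oprm1, Sema5b (2.92, SE 0.46, edgeR adjusted p = 8.38e-04) and Khdrbs3 (1.18, SE 0.34, adjusted p = 0.0396). In nuclei with Tshz1, Sox6 had 1 against 156 UMIs and Kcnmb2, a potassium channel subunit gene, 0 against 123 UMIs (at least 26.8-fold lower), both of them genes of the Nxph1-rich nuclei. The kinds had been set with Tshz1 and Pbx3, so nuclei split on Tshz1 had to separate by kind, and the Tshz1 split is no independent support for them. Without 3M-2 the Tshz1 split had no gene past the threshold, although 246 genes had an unadjusted p under 0.05, and without 6M-1 it had 16. The Oprm1 split had 36 genes without 3M-2, 11 without 6M-1 and 164 without 3M-1.

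Age could be fitted only as both 3-month libraries against 6M-1, because 6M-2 had fewer than 10 Drd1 nuclei. By edgeR, 20 genes were higher and 15 lower in 6M-1, which is 0.654% of 5348 genes. Npy, the neuropeptide Y gene, had 48, 42 and 0 UMIs and Sst, the somatostatin gene, 11, 20 and 0. The transcription factor gene Sox5 had 1, 18 and 104 UMIs. In 6M-2, which the fit left out, Npy had 27 UMIs, Sst 7 and Sox5 87, and its Npy and Sst UMIs all came from 1 nucleus. Nearly all of these UMIs came from the 5, 4, 5 and 7 Nxph1-rich nuclei. In those, Npy had 47, 41, 0 and 27 UMIs, Nos1, the neuronal nitric oxide synthase gene, had 123, 28, 0 and 19, and Sox5 had 0, 18, 97 and 87.

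**Figure D5:**
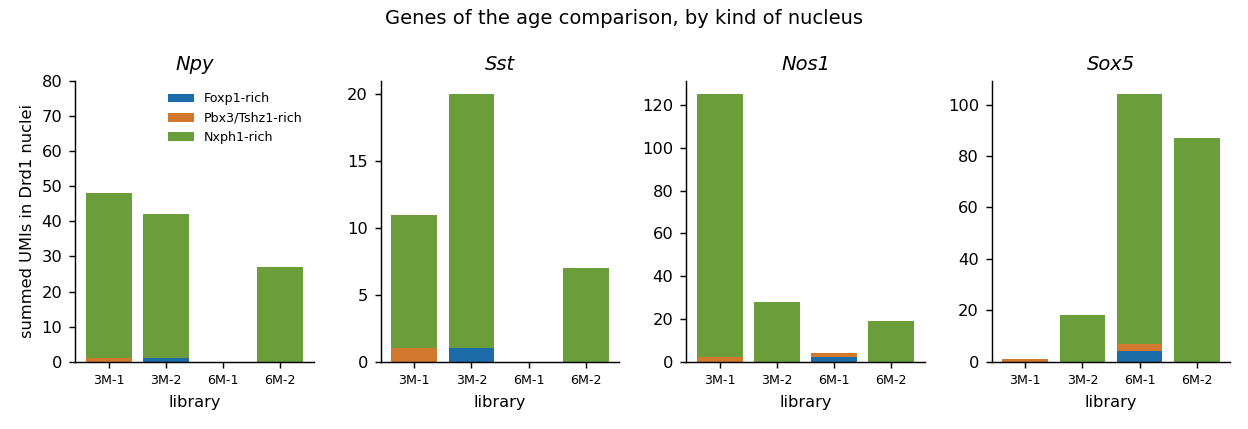
Summed UMIs (vertical axes, each from 0 on its own scale) of Npy, Sst, Nos1 and Sox5 in the Drd1 nuclei of each library (horizontal axis), coloured by kind. Nearly all UMIs came from the Nxph1-rich nuclei, and Npy and Sst were at 0 in 6M-1 only.

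With 6M-2 brought in by sums of at least 5 nuclei no gene passed in edgeR (271 genes at an unadjusted p under 0.05), and none did with the shared batch number as a replicate block (217 genes). DESeq2 on the main sums called 0 genes (31 at an unadjusted p under 0.05). With the Nxph1-rich nuclei left out, 2 genes passed, both higher in 6M-1 and named here after their values were seen. Lrmda had 11, 0 and 30 UMIs (log2 difference 2.64, SE 0.58, edgeR adjusted p = 0.0200) and Xrn2, an exoribonuclease gene, 7, 5 and 29 (2.42, SE 0.57, adjusted p = 0.0469). In the spiny neuron lists no gene passed in the main fit. None of the 18 identity genes tested was called (median log2 difference -0.14 against -0.03 over all genes), nor any of the 26 dopamine and cyclic AMP genes (-0.15) or the 5 activity-regulated genes (-0.58). Tacr1, the substance P receptor gene, was lower in 6M-1 than in the 3-month libraries (44, 11 and 2 UMIs, log2 difference -3.58). Of the 44 UMIs in 3M-1, 19 came from 1 Nxph1-rich nucleus. In 6M-2 Tacr1 had 14 UMIs, all in the nucleus that held the Npy and Sst UMIs. At 131 CPM, Tacr1 in 6M-2 lay between the 3-month libraries at 156 and 60.2 CPM. With 1 library in the 6-month arm, these values compare 6M-1 with the 3-month libraries, and a difference of that mouse and a change with age cannot be told apart. The difference between Drd1 and Drd2 nuclei in how 6M-1 departed from the 3-month libraries was tested as well. By edgeR it was called for 32 genes, 5 with a more positive and 27 with a more negative change in Drd1 nuclei, which is 0.464% of 6890 genes, and for 0 genes by DESeq2 (30 at an unadjusted p under 0.05).

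Gclc, the gene targeted in these mice, was detected in the Drd1 nuclei of every library, with 7, 11, 6 and 4 UMIs, or 24.8, 60.2, 26.8 and 37.4 CPM. It was at 46.9, 47.3 and 59.9 CPM in Drd2 nuclei and at 34.1 to 42.2 CPM in excitatory nuclei, so the ranges overlapped. Neither the comparison with Drd2 nuclei (-0.55, SE 0.40, edgeR adjusted p = 0.586) nor that with interneuron nuclei (-0.16, SE 0.34, adjusted p = 0.876) passed the test. Reads counted near the 3′ end of a transcript need not reach the deleted part, and with no wild-type library these values do not check the deletion. Of 21 genes of glutathione synthesis and antioxidant defence, 4 could be tested against Drd2 nuclei and 17 against interneuron nuclei, and none was called in either (median log2 differences 0.11 and -0.12). With a few UMIs a gene, only large differences could have been detected. Of the activity-regulated genes, Homer1, a postsynaptic scaffold gene (1.03, SE 0.21, adjusted p = 0.00154), and Junb (1.79, SE 0.32, adjusted p = 4.03e-04) were higher than in interneurons, 2 of 8 tested beside 10.1% of all genes, and none of 4 tested was called against the Drd2 nuclei beside 6.25% of all genes. In 3M-2, Homer1 was at 405 CPM against 184 and 192 CPM in 3M-1 and 6M-1, but 35 of its 74 UMIs in 3M-2 came from 1 nucleus. Another single nucleus, in 3M-1, held 25 Homer1 UMIs, and 2 nuclei of 3M-2 held 8 and 7 Junb UMIs.

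Markers of other cell types were summed in the Drd1 nuclei. The summed level of 9 interneuron markers was 1706, 1363, 1161 and 2764 CPM in the Drd1 nuclei and 105, 253 and 287 CPM in the Drd2 nuclei. In the Drd1 nuclei Nxph1 led over all libraries together. In each library other than 6M-2, Adarb2 was more abundant than Nxph1, and Adarb2 was also present in the Foxp1-rich and Pbx3/Tshz1-rich nuclei. The 6 oligodendrocyte markers, led by Mbp, summed to 216, 274, 188 and 37.4 CPM (75.7, 537 and 399 CPM in Drd2 nuclei), and the 4 microglial markers, led by P2ry12, to 74.3, 71.2, 143 and 103 CPM (43.3, 105 and 164 CPM in Drd2 nuclei). Mbp was called higher than in interneuron nuclei (0.80, SE 0.21, edgeR adjusted p = 0.0142), 1 of 5 oligodendrocyte markers tested beside 10.1% of all genes. Of 8 excitatory markers, Slc17a6 and Fezf2 were at 0 throughout and Cux2, which inhibitory neurons also express, was the most abundant. The excitatory sums were 212, 175, 161 and 243 CPM against 105, 128 and 117 CPM in Drd2 nuclei, and Cux2, the 1 marker tested there, was called higher in Drd1 nuclei (1.88, SE 0.30, edgeR adjusted p = 0.00120). The 3 markers of oligodendrocyte precursors, led by Vcan, summed to 14.2, 71.2, 13.4 and 0 CPM. The 4 astrocyte markers, led by Slc1a3, summed to 17.7, 10.9, 4.47 and 18.7 CPM, with Gja1 at 0. The granule cell markers Gabra6 and Zic1 were at 0 as well. Scrublet called 1, 2, 3 and 0 of the Drd1 nuclei doublets. Between pairs of libraries 12 to 19 barcodes were shared, and 1 of them belonged to a Drd1 nucleus. The part of doublets or of free RNA in these markers was not tested.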

How the data were processed

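The values used are the deposited raw counts of UMIs, made for the authors by a contractor with Cell Ranger 7.0.0, per the file headers and the study's methods. The labels name the build mm10. Positions come from GENCODE M21 (GRCm38), which held 32235 of the 32285 genes. The study's filter was applied again. UMIs were summed per mouse and class (at least 10 nuclei a sum) and tested with edgeR 4.0.16 (TMM, filterByExpr, quasi-likelihood, Benjamini-Hochberg over all genes tested, threshold 0.05) in R 4.3.3, and with DESeq2 1.42.0 as an alternative. The Drd1 against Drd2 test and the age test were run on simulated counts with known changes and no difference between mice. The other fits were not run on simulated counts. Log2 differences come from the fit, and their SE from its F statistic. CPM were not divided by gene length. Two-sided exact permutation tests were used for shares, and Scrublet (Scanpy 1.11.5) for doublets. Members, gene lists and tests were chosen with earlier results of these data known. Tests between classes of nuclei were blocked by mouse. The labels give the libraries of both ages the same batch numbers, 1 and 2, from which the age pairing comes. Deviations of same-numbered libraries correlated at -0.0024 over genes in Drd1 nuclei.

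Genes named were those of the lists and, per test, up to 10 higher and 10 lower with the smallest adjusted p and the same direction in every mouse, without predicted genes. Where under 3 passed, the 3 with the smallest p could be named. Genes leading a kind, and values within the Foxp1-rich kind, were picked after their values were seen. Beyond the samples' labels nothing says how the mice were chosen, so p-values apply to these mice only. In the tests blocked by mouse they rest on how far the difference between classes varied from mouse to mouse. In the main age fit and the main fit of the difference in age changes, the older arm had no replicate. The p-values of those fits therefore do not measure the spread between older mice. Some members of the lists are counted but not reported here by name.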

Additional observations from a re-analysis of the deposited data

Results flagged for a closer look

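By edgeR's interaction of class and age, 32 genes passed the threshold. The 6-month arm was 6M-1 alone, so the fit compares how 1 mouse departed from the other 2 in each class, and DESeq2 called 0 genes and the fit without the replicate block 4. The 3 with the smallest p were Dscam, an adhesion gene (fitted log2 difference -3.86), Grik1 (-3.75) and Alk, a receptor tyrosine kinase gene (-3.57). Tacr1 (-8.11) and Sst (-10.0) were called too, but had 0 UMIs in some sums, so their fitted values are no bound. In 3M-1, 3M-2 and 6M-1, Grik1 had 76, 43 and 49 UMIs in Drd1 nuclei and 4, 8 and 94 in Drd2 nuclei. Dscam had 102, 53 and 36 UMIs against 11, 6 and 82, and Alk 254, 56 and 21 against 3, 25 and 37. The larger movement of Grik1 was thus in the Drd2 nuclei, which held 0, 2 and 3 Nxph1-rich nuclei in these libraries. With the Nxph1-rich nuclei left out, 3 genes were called.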

How the results depend on the processing

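With a stricter rule (3 or more Rarb and 2 or more Drd1 UMIs) no sum of Drd1 nuclei reached 10 nuclei, and no gene test of them could be run. The difference in the share of Drd1 nuclei, 6 against 3 months, was negative under each alternative that used all 4 libraries, from -0.147 percentage points (Nxph1-rich nuclei left out) to -0.0148 (thinned to 3000 UMIs), and -1.04 points among GABA nuclei. It ran from -0.222 to -0.0283 without each library under the main rule, but without 6M-2 it turned positive under the looser rule (0.0257), under the stricter rule (0.0177) and thinned (0.0281), and without 3M-1 under the stricter rule (0.00887). The difference in Drd1 nuclei per 100 of both classes ran from -2.66 to 57.3 without each library under the main rule. Without 6M-2 it was 3.25 under the looser rule, 9.68 under the stricter rule, 3.70 thinned and 0.313 without Scrublet doublets. It was -1.90 without 6M-2 and Nxph1-rich nuclei, and -2.66 without 6M-2 and the study's filter. With all 4 libraries it has no value under the stricter rule, thinned, or without Nxph1-rich nuclei, since 6M-2 then held none.

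Against Drd2 nuclei, DESeq2 called 120 genes, no filter on low counts gave 485, no replicate block 205 and a looser rule (1 or more Rarb UMI) 509, with 197 to 345 without each library. The 41 genes followed kept their direction in all 410 values over these alternatives, and in 56 of them the call was lost, 15 by DESeq2 and 7 with no replicate block. Against interneurons DESeq2 called 672, the looser rule, with 6M-2 included, 419, and leaving out Nxph1-rich nuclei 1865, with 527 to 1247 without each library. The 35 age calls became 0 by DESeq2, 0 under the looser rule, 0 with sums of 5 or more nuclei, 0 with those sums and the replicate block, 22 without the filter on low counts, 22 without Scrublet doublets and 2 without Nxph1-rich nuclei, where Col25a1 (0.20) and Sox2ot (0.22) turned from lower to higher in 6M-1. Leaving out a further library was not possible there or for the difference in age changes. That difference was called for 0 genes by DESeq2, 4 with no replicate block, 16 under the looser rule, 17 without Scrublet doublets and 3 without Nxph1-rich nuclei. The Oprm1 split gave 206 genes without the filter, 150 with no replicate block, 185 under the looser rule and 232 without Nxph1-rich nuclei, and 11 to 164 without each library. The Tshz1 split gave 81 by DESeq2, 286 under the looser rule and 0 to 131 without each library. Calls were also lost in 113 of 824 values against interneurons, 33 of 288 for Oprm1, 81 of 329 for Tshz1, 90 of 147 for age and 13 of 33 for the difference in age changes. The block changed the direction of no gene followed. The sums of 5 or more nuclei and the leaving out of Nxph1-rich nuclei were chosen after seeing the data. The cause of these changes was not tested. With 7 to 27 Drd1 nuclei a library, many differences could have been missed, and the smallest difference that could be seen was not measured.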
